A study of Mus musculus with 9 samples.

Results

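The sarcomeric thin filament is described here through 10 genes, namely the actins Actc1 and Acta1, the tropomyosins Tpm1, Tpm2 and Tpm3, and the troponin subunits Tnnt2, Tnnt1, Tnni3, Tnni1 and Tnnc1. Every deposited transcript carrying one of these names was taken and summed by gene, which gave 10 of the 41710 gene names in the count and TPM tables. Hearts of 9 male FVB/N mice, all 8 months of age, were frozen and pulverised whole, and total RNA was sequenced with single reads of 50 bases. There were 3 hearts of Tg-RKIP mice, whose Raf kinase inhibitor protein (gene Pebp1) is expressed in the myocardium from the alpha-MHC promoter. A further 3 libraries were labelled Tg-GRK2, for a transgene of GRK2, a kinase acting on activated G-protein-coupled receptors, with the promoter not given in the sources used here. The remaining 3 libraries came from non-transgenic FVB controls. The number of transgenic lines or founders behind these hearts was not given in the labels. Both comparisons with the controls use the same 3 control hearts, so their results are given side by side and were not compared with each other.

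The thin filament is a double strand of actin carrying tropomyosin and the troponin complex. Troponin C binds calcium, troponin I inhibits the actin-myosin interaction at low calcium, and troponin T anchors the complex to tropomyosin. Most of these proteins exist as isoforms from separate genes: Actc1, Tnnt2 and Tnni3 are the cardiac forms of the adult heart, Acta1 encodes skeletal alpha-actin, Tnnt1 and Tnni1 encode the slow skeletal troponins, and Tnnc1 serves both cardiac and slow skeletal muscle. Acta1 and Tnni1 are expressed in the fetal heart, and Acta1 is a well-known member of the fetal gene programme that is re-expressed in hypertrophied and failing hearts. Tpm1 is the main tropomyosin gene of the mouse heart, while Tpm2 and Tpm3 encode forms of slow skeletal muscle as well as smooth muscle and non-muscle forms.

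The identity of the transgenic libraries was examined first. Pebp1 stood at 16371, 15967 and 16257 TPM (a level corrected for transcript length and given as a share of each library's total) in Tg-RKIP hearts, and at 324, 330 and 321 TPM in the FVB controls. Grk2 in the Tg-GRK2-labelled libraries was not called higher than in the controls by edgeR (log2 fold change 0.05 ± 0.0384 SE, n = 3 against 3, adjusted p = 0.354), so the mouse Grk2 level did not check the label. The species and sequence of the transgene, and whether its reads would be counted as mouse Grk2, are not given in the sources used here, and Tg-GRK2 is used below as a label only. Depth ranged from 25458108 to 33447654 reads per library. Mitochondrially encoded transcripts took 20.7 ± 0.299% of TPM in Tg-RKIP hearts, 38.1 ± 0.509% in the Tg-GRK2-labelled libraries and 38.1 ± 0.237% in FVB controls (mean ± SD, n = 3). A TPM value is a share of the library's total, so all other transcripts had a larger share of the total left to them in Tg-RKIP hearts. The edgeR fold changes use TMM scaling, which sets the typical gene near 0 (median of all tested genes 0.01 for Tg-RKIP against FVB). Scaling by library size alone moved that median to 0.38. Members with small TMM fold changes can therefore point in opposite directions in the TPM values and in the fit, and both are given. In pulverised whole hearts, fewer cells of a type and less RNA per cell cannot be told apart.

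Of the 10 genes, 5 rose and 4 fell in Tg-RKIP hearts against FVB controls at an adjusted p under 0.05 (edgeR quasi-likelihood test, Benjamini-Hochberg over 15504 genes), and 1, Actc1, was not called. Acta1 and Tnnt1, the skeletal actin and the slow skeletal troponin T, rose by 2.66 and 2.64 on the log2 scale. Tpm3, Tpm2 and Tnni1, none of them the main cardiac gene of its family, also rose, by 0.77, 0.73 and 0.97. The genes that fell were Tpm1, Tnni3, Tnnt2 and Tnnc1, by 0.57, 0.52, 0.10 and 0.10. Scaled by library size alone, Tnnt2 and Tnnc1 were instead called higher (edgeR, adjusted p = 5.28e-10 and 2.57e-11). Under that scaling all 10 genes were called, 8 higher and 2 lower, and 78.6% of the calls over all genes were higher. Under TMM, 36.8% of all tested genes were called higher and 37.1% lower in this comparison, so a call as such was common. A rise of at least 1 on the log2 scale, seen for 2 of the 10 genes, was found in 10.2% of all tested genes. The median fold change of the 10 genes was 0.36 on the log2 scale beside 0.01 over all genes tested. It fell in the gap between Actc1 (-0.02) and Tpm2 (0.73), with no gene near it, so it does not describe a shift of the whole list.

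**Figure D1:**
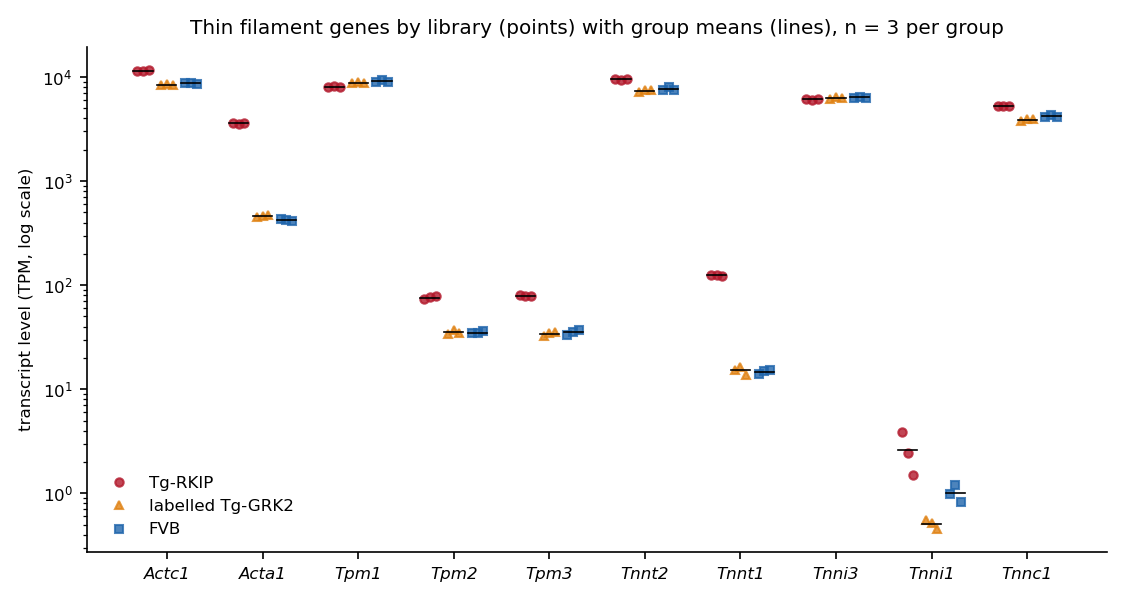
Transcript level of the 10 thin filament genes in each of the 9 libraries, in TPM on a log axis, with points for libraries and short lines for the means of the 3 groups. Acta1 sits at 3512 to 3621 TPM in Tg-RKIP hearts and at 417 to 471 TPM in the other 6 libraries, and Tnnt1, Tpm2 and Tpm3 are likewise apart, while Tnni3 lies within one narrow range in all groups.

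In the controls the order of the mean TPM levels was Tpm1, Actc1, Tnnt2, Tnni3, Tnnc1, Acta1, Tpm3, Tpm2, Tnnt1 and Tnni1. Only the neighbours Tpm3 and Tpm2 overlapped in their library ranges. The Tg-GRK2-labelled libraries had this order too, except that Tpm2 and Tpm3 changed places with overlapping ranges. In Tg-RKIP hearts Actc1 and Tnnt2 stood above Tpm1, and Tnnt1 stood above Tpm3 and Tpm2, with no overlap between any neighbours. The 10 genes together made up 4.44 ± 0.0270% of TPM in Tg-RKIP hearts, 3.54 ± 0.0689% in the Tg-GRK2-labelled libraries and 3.66 ± 0.0660% in FVB controls (SD, n = 3). With the mitochondrially encoded transcripts left out of the total, these shares were 5.60 ± 0.0258%, 5.72 ± 0.128% and 5.91 ± 0.0859%, and the order of the Tg-RKIP and control shares turned.

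The actins are the backbone of the filament. Upstream sequences of both sarcomeric actin genes are shown because the balance between them differed in Tg-RKIP hearts, together with that of Tnnt1, the other gene of the list that rose by more than 1 on the log2 scale. Each is the 250 bases before the RefSeq start site in GRCm38.p6, read 5′ to 3′ on the strand of the gene. Acta1 lies at chr8:123894776-123895025 on the minus strand, Actc1 at chr2:114052876-114053125 on the minus strand, and Tnnt1 at chr7:4515976-4516225 on the minus strand. Capitals mark matches to a CArG box (the consensus bound by serum response factor), to CATTCC or its complement GGAATG (a TEAD-type letter string) and to TATAAA, each searched on both strands.
Acta1: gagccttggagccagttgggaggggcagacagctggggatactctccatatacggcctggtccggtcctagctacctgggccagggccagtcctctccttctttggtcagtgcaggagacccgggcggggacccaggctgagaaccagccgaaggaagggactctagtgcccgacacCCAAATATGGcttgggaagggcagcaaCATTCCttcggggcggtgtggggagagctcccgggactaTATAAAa
Actc1: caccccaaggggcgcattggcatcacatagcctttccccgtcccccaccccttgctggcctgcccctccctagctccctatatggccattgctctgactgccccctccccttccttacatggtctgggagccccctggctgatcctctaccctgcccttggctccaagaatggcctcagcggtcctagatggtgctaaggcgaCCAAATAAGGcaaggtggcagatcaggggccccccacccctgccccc
Tnnt1: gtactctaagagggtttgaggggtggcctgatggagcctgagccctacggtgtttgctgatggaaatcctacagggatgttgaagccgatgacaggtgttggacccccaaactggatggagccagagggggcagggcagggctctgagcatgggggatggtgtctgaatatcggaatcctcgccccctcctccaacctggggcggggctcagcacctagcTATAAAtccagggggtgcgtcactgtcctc
The Acta1 window held a CArG box 73 bases, CATTCC 46 bases and TATAAA 7 bases before the start site. The Actc1 window held a CArG box 47 bases before the start site, and the Tnnt1 window TATAAA at 30 bases. Of 32851 windows of the same length, 1.47% held a CArG box, 12.6% CATTCC and 12.4% TATAAA. Among the 13 windows listed for the 10 genes, the CArG box occurred in those of Acta1 and Actc1, while CATTCC or GGAATG also occurred in windows of Tnnt2, Tpm1 and Tnnc1. The windows of Tnni1, Tnni3, Tpm2 and Tpm3 held none of these letters, which says nothing about factors that act elsewhere.

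Acta1 lies at 8:124618508-124621490 on the minus strand of GRCm39, as the deposited files give it. Its level was 3603, 3512 and 3621 TPM in Tg-RKIP hearts, 457, 467 and 471 TPM in the Tg-GRK2-labelled ones, and 431, 422 and 417 TPM in FVB controls. All 3 Tg-RKIP values stood above all others, and the Tg-GRK2-labelled libraries stood above the controls without overlap. The ratio of mean TPM was 8.46 for Tg-RKIP over FVB, and the edgeR log2 fold change was 2.66 ± 0.0189 (SE, adjusted p = 1.26e-28). In the Tg-GRK2-labelled libraries the gene was called higher than in the controls by 0.09 ± 0.0181 (edgeR, adjusted p = 0.00114). Against those libraries Tg-RKIP hearts were higher by 2.58 (edgeR, adjusted p = 1.40e-28). Of the 50-base windows in the annotated Acta1 transcripts, 2.02% recurred in another gene, and none of them in Actc1.

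Actc1, cardiac alpha-actin at 2:113877763-113884029 on the minus strand, was measured at 11462, 11389.7 and 11694 TPM in Tg-RKIP hearts. The Tg-GRK2-labelled libraries gave 8336, 8546 and 8378 TPM, and the FVB controls gave 8824, 8695 and 8666 TPM. On the TPM scale the Tg-RKIP libraries stood above all others, yet the TMM-scaled fold change against FVB was -0.02 ± 0.0121 (SE, edgeR, adjusted p = 0.187), and it was 0.36 when scaled by library size alone. Without the third Tg-RKIP library it was called lower at -0.04 (edgeR, adjusted p = 0.00355). The Tg-GRK2-labelled libraries differed from the controls by -0.10 on the log2 scale (edgeR, adjusted p = 1.47e-06).

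The Acta1 share of the summed TPM of both sarcomeric actins does not depend on how libraries are scaled to each other. It was 23.9, 23.6 and 23.6% in Tg-RKIP hearts, 5.19, 5.18 and 5.32% in the Tg-GRK2-labelled ones, and 4.65, 4.63 and 4.59% in FVB controls. None of the 3 groups overlapped with another. Tg-RKIP hearts had 23.7 ± 0.184% and controls 4.62 ± 0.0312% (SD, n = 3 each), a difference of 19.1 percentage points. The difference between the Tg-GRK2-labelled libraries (5.23 ± 0.0760%) and the controls was 0.607 points. Both comparisons gave p = 0.1 in a two-sided exact permutation test, the smallest p that 3 against 3 libraries allow, so this design cannot reach 0.05. Adjusted over the 18 isoform shares and comparisons, that exact p became 0.129.

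**Figure D2:**
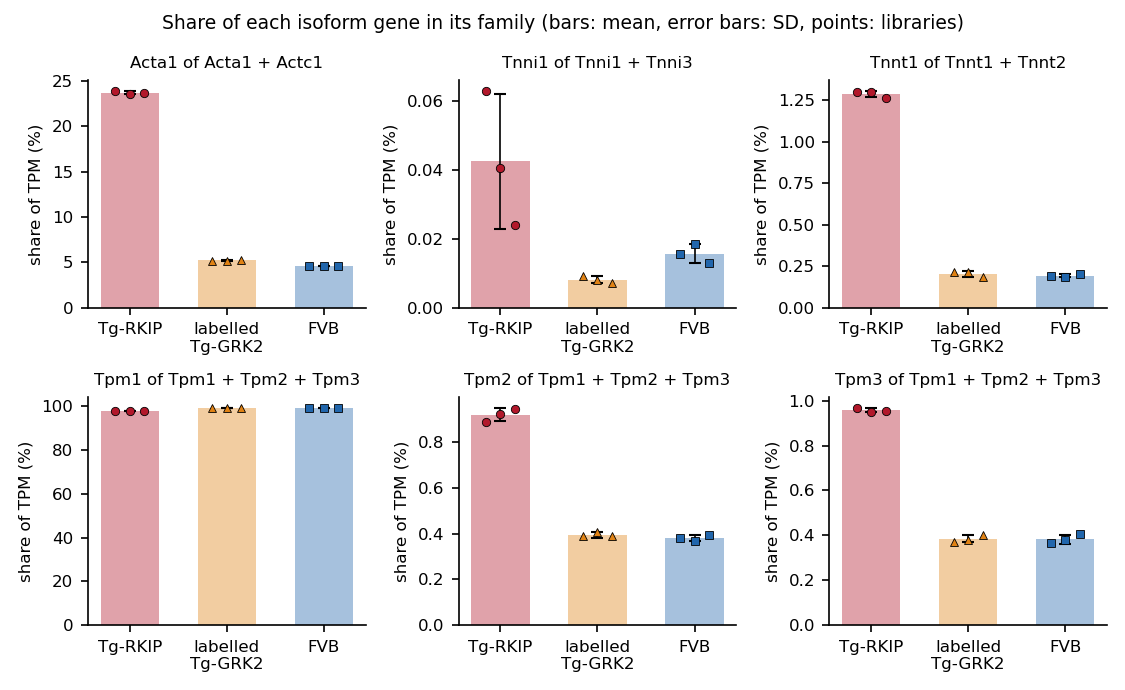
Share of single genes in the summed TPM of their isoform family, in percent, with bars for the mean of 3 libraries, error bars for the SD and points for libraries. Acta1 takes 23.7% of sarcomeric actin in Tg-RKIP hearts and 4.62% in FVB controls, Tnnt1 takes 1.29% and 0.192% of its pair with Tnnt2, and the 3 Tg-RKIP libraries stand apart from all control libraries in every panel.

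The tropomyosins lie along the actin strand and move with the troponin complex when calcium binds. Tpm1, at 9:66929872-66956688 on the minus strand, stood at 8082, 8147 and 8094 TPM in Tg-RKIP hearts. It stood at 8731, 8967 and 8839 TPM in the Tg-GRK2-labelled libraries and at 8984, 9296 and 9035 TPM in FVB controls. The Tg-RKIP libraries were below all others on the TPM scale, and the fitted change against FVB had the same direction (-0.57 ± 0.0119 SE, edgeR, adjusted p = 1.17e-20), with -0.19 when scaled by library size alone. The Tg-GRK2-labelled libraries were called lower than the controls as well, at -0.10 (edgeR, adjusted p = 2.75e-06).

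Tpm2, the beta-tropomyosin gene at 4:43514711-43523765 on the minus strand, was measured at 73.3, 76.8 and 78.1 TPM in Tg-RKIP hearts. The Tg-GRK2-labelled libraries gave 34.1, 36.9 and 34.6 TPM, and the FVB controls 34.4, 34.6 and 35.9 TPM. The Tg-RKIP values stood above the rest, while the other groups overlapped. The edgeR log2 fold change of Tg-RKIP against FVB was 0.73 ± 0.0356 (SE, adjusted p = 3.82e-14). That of the Tg-GRK2-labelled libraries against FVB was -0.04 and was not called (edgeR, adjusted p = 0.483).

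Tpm3, at 3:89979956-90008209 on the plus strand, stood at 79.6, 78.9 and 78.8 TPM in Tg-RKIP hearts. It stood at 32.6, 34.4 and 35.7 TPM in the Tg-GRK2-labelled libraries and at 33.2, 35.3 and 36.8 TPM in FVB controls. The Tg-RKIP libraries were apart and the other groups overlapped. The edgeR log2 fold change of Tg-RKIP against FVB was 0.77 ± 0.0336 (SE, adjusted p = 5.47e-15). Between the Tg-GRK2-labelled libraries and FVB it was -0.09 and not called (edgeR, adjusted p = 0.0992), but without the first FVB library it was -0.12 and called (adjusted p = 0.0231). The gene shares sequence with a processed copy: 23.2% of the 50-base windows of its annotated transcripts, 1457 of 6271, recurred in Tpm3-rs7. How reads matching both were counted is not given in the sources used here, and Tpm3-rs7 itself was listed at 0.872 TPM in Tg-RKIP hearts and 0.201 TPM in controls.

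Tropomyosin genes are known to use alternative start sites that give long and short isoforms, and the deposited transcript table separates them for Tpm3. Of its 16 transcripts, 2 begin upstream of the rest, together called the upstream start, the first of them at 3:89979956 in GRCm39. The other, ENSMUST00000119570, begins at 3:89979958, and the GRCm38 annotation places its first base at a RefSeq start site. The 250 bases before that RefSeq start site are shown because the 2 upstream transcripts carried part of the rise. They lie at chr3:90072401-90072650 on the plus strand of GRCm38.p6 and held none of the letter strings searched, so nothing is in capitals.
Tpm3 upstream start: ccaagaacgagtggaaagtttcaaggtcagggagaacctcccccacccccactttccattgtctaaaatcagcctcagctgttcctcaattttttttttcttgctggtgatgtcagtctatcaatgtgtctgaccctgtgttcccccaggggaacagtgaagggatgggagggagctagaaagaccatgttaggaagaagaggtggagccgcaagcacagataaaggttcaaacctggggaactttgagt
Reads assigned to the upstream transcripts numbered 787, 909 and 655 in Tg-RKIP hearts. Their counts were 17, 7 and 18 in the Tg-GRK2-labelled libraries and 19, 16 and 20 in FVB controls. Their share of Tpm3 TPM was 28.5, 25.8 and 24.5% in Tg-RKIP hearts and between 1.92 and 2.77% in controls. In TPM, transcripts from the upstream start averaged 20.8 in Tg-RKIP hearts and 0.859 in controls, and those from all other starts 58.3 and 34.3. One of the 2 upstream transcripts, ENSMUST00000119570, averaged 17.5 TPM in Tg-RKIP hearts and was listed at 0 in all 6 other libraries. The most abundant transcript, ENSMUST00000029549, which begins downstream, averaged 33.4 and 25.5 TPM in Tg-RKIP hearts and controls. Taken alone it gave a log2 fold change of -0.07 in the TMM-scaled fit (edgeR, adjusted p = 0.519), against 0.77 for the whole gene. The deposited values do not say how reads were divided between transcripts, so these transcript values are a description with no test.

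As shares of the summed tropomyosin TPM, Tpm1 made up 98.1 ± 0.0225% in Tg-RKIP hearts and 99.2 ± 0.0298% in FVB controls (SD, n = 3). Tpm2 made up 0.921 ± 0.0286% and 0.381 ± 0.0124%, and Tpm3 0.957 ± 0.00864% and 0.383 ± 0.0195%. The Tg-RKIP libraries were apart from the controls for each of the 3 genes (exact permutation p = 0.1, the smallest possible). The corresponding exact permutation tests of the Tg-GRK2-labelled libraries against FVB gave p = 0.5, 0.3 and 1, with overlapping groups. Tpm1 and Tpm2 were each dominated by the same pair of transcripts in all groups: for Tpm1, ENSMUST00000113685 and ENSMUST00000113687 took 79.3 and 19.2% of the TPM in Tg-RKIP hearts and 75.4 and 23.9% in controls, and for the first of them the control range of 71.3 to 78.4% overlapped the Tg-RKIP range of 78.3 to 79.8%.

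Troponin T ties the troponin complex to tropomyosin. Cardiac troponin T is spliced differently in fetal and adult hearts, the fetal form being known to include a 30-base exon near the start of the coding region that the adult form skips. The junction of the transcript with this exon and that of the main transcript without it are shown, because their balance differed between groups. In the first, capitals mark the exon, which lies at chr1:135843785-135843814 on the plus strand of GRCm38 and at 1:135771523-135771552 in the GRCm39 coordinates of the files, with 20 bases on each side. In both, the last 20 bases belong to the following exon, chr1:135845555-135845644 in GRCm38.
Tnnt2 with the exon (ENSMUST00000179863): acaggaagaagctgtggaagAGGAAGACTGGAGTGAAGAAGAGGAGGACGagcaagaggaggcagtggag
Tnnt2 without the exon (ENSMUST00000027671): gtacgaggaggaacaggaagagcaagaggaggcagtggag
The 12 bases before the capitals in the first sequence are a further short exon that the main transcript also lacks. The exon lengths of both transcripts were equal in the deposited files and in the GRCm38 annotation from which the letters were read.

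As a whole gene, Tnnt2 (1:135764092-135779998, plus strand) stood at 9501, 9459 and 9562 TPM in Tg-RKIP hearts, 7134, 7591 and 7485 TPM in the Tg-GRK2-labelled libraries, and 7494, 8047 and 7441 TPM in FVB controls. On the TPM scale the Tg-RKIP libraries were above all others, but the TMM-scaled change against FVB was negative, at -0.10 ± 0.0229 (SE, edgeR, adjusted p = 0.000554), and it was 0.28 when scaled by library size alone. The Tg-GRK2-labelled libraries overlapped the controls in TPM and were called lower at -0.10 (edgeR, adjusted p = 0.00198), a call lost in DESeq2 (adjusted p = 0.0659). Between Tg-RKIP hearts and the Tg-GRK2-labelled libraries the fitted difference was 0.00 (edgeR, adjusted p = 0.916), and it was 0.37 when scaled by library size alone.

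Within Tnnt2, transcripts with the 30-base exon made up 23.4 ± 0.445% of the TPM of the full-length coding transcripts in Tg-RKIP hearts (range 23.0 to 23.9%, SD, n = 3). The share was 6.92 ± 0.180% (6.75 to 7.11%) in the Tg-GRK2-labelled libraries and 7.28 ± 0.359% (6.97 to 7.67%) in FVB controls. All Tg-RKIP libraries were above all others and the other groups overlapped. ENSMUST00000179863, the main transcript with the exon, averaged 2146, 471 and 511 TPM in the 3 groups in that order. ENSMUST00000027671, the main transcript without it, averaged 5709.7, 5728.5 and 5733 TPM, so the rise of Tnnt2 in TPM lay in other transcripts than the most abundant one. The 12-base exon before it had shares of 34.7, 16.6 and 18.2%. A 9-base exon further downstream, 1:135778117-135778125, had a lower share in Tg-RKIP hearts, at 76.1% beside 92.3 and 91.7%. ENSMUST00000179863 lacks this exon, so its larger share of Tnnt2 TPM in Tg-RKIP hearts (22.6%, beside 6.66% in controls) is largely the same difference seen from the other side. Single reads of 50 bases rarely span several of these junctions, so the division of reads between transcripts is an estimate, and it was grouped by exon after the values were seen and is given with no test.

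**Figure D3:**
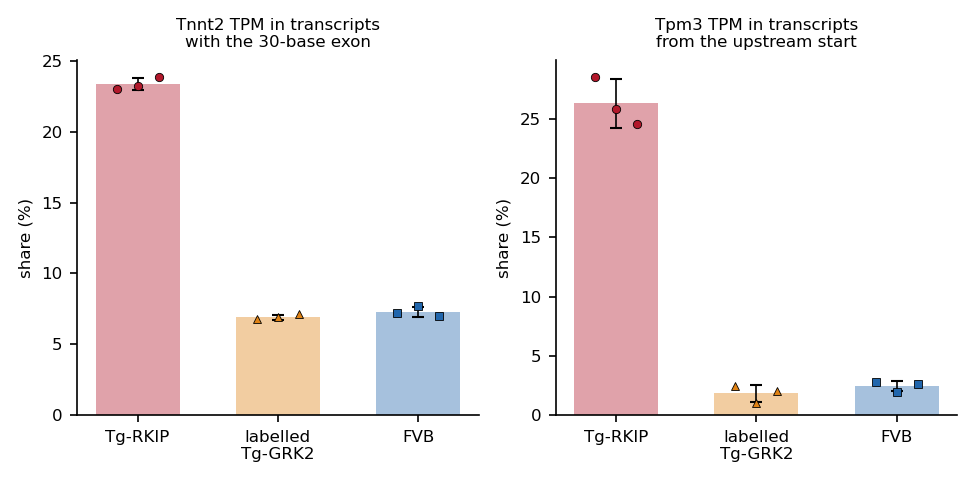
Share of transcripts with the 30-base exon in Tnnt2 TPM and share of the upstream start in Tpm3 TPM, in percent, with bars for the mean of 3 libraries, error bars for the SD and points for libraries. Tg-RKIP libraries lie at 23.0 to 23.9% for the Tnnt2 exon and at 24.5 to 28.5% for the Tpm3 start, and control libraries at 6.97 to 7.67% and 1.92 to 2.77%.

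Tnnt1, the slow skeletal troponin T gene at 7:4507569-4519381 on the minus strand, stood at 124.9, 124.4 and 122.5 TPM in Tg-RKIP hearts. It stood at 15.5, 16.4 and 13.8 TPM in the Tg-GRK2-labelled libraries and at 14.2, 14.9 and 15.1 TPM in FVB controls. The Tg-RKIP libraries were far above both other groups, which overlapped, and had 1821 to 2371 reads against 228 to 280 in the other 6 libraries. The ratio of mean TPM over FVB was 8.40, and the edgeR log2 fold change was 2.64 ± 0.0478 (SE, adjusted p = 7.86e-22). The Tg-GRK2-labelled libraries gave -0.01 against FVB (edgeR, adjusted p = 0.971), a change whose sign turned with the scaling. The Tnnt1 share of troponin T TPM was 1.29 ± 0.0191% in Tg-RKIP hearts and 0.192 ± 0.00952% in controls, groups that did not overlap (exact permutation p = 0.1). Tnnt1 lies 1922 bases from Tnni3, the cardiac troponin I gene, on the same strand, and that neighbour fell in the same comparison.

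Troponin I is the inhibitory subunit, and its slow skeletal form precedes the cardiac form in development. Tnni3, at 7:4521304-4527228 on the minus strand, stood at 6198, 6076 and 6160.4 TPM in Tg-RKIP hearts, 6146, 6405 and 6304 TPM in the Tg-GRK2-labelled libraries, and 6348, 6450.3 and 6318 TPM in FVB controls. The TPM values of the Tg-RKIP hearts and the controls were close but did not overlap, while the TMM-scaled log2 fold change was -0.52 ± 0.0153 (SE, edgeR, adjusted p = 4.88e-18) and -0.14 when scaled by library size alone. On log2(TPM + 0.1), limma gave -0.05, called lower with a filter on low values (adjusted p = 0.0217). With no such filter limma gave no call (adjusted p = 0.12). The Tg-GRK2-labelled libraries were called lower than FVB at -0.07 (edgeR, adjusted p = 0.000825). A short transcript annotated as a retained intron, ENSMUST00000126873 of 451 bases, took 50.7% of Tnni3 TPM in Tg-RKIP hearts, 46.4% in the Tg-GRK2-labelled libraries and 45.8% in controls. The coding transcript ENSMUST00000098859 averaged 3003 TPM in Tg-RKIP hearts, 3347 TPM in the Tg-GRK2-labelled libraries and 3422 TPM in controls.

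Tnni1, the slow skeletal and fetal troponin I gene at 1:135707172-135738727 on the plus strand, was the lowest of the 10 genes. Its level was 3.90, 2.46 and 1.48 TPM in Tg-RKIP hearts, from 59, 54 and 19 reads. The Tg-GRK2-labelled libraries had 0.559, 0.522 and 0.449 TPM from 11, 9 and 10 reads, and the controls 0.989, 1.19 and 0.822 TPM from 16, 22 and 14 reads. The groups did not overlap in TPM, but the Tg-RKIP libraries spread widely and the counts were small. The edgeR log2 fold change against FVB was 0.97 ± 0.324 (SE, adjusted p = 0.0109). Without the first Tg-RKIP library it was 0.61 and was no longer called (edgeR, adjusted p = 0.114), and with the most abundant transcript alone it was 0.79 (adjusted p = 0.211). The Tg-GRK2-labelled libraries were at -0.88 ± 0.415 against FVB and were not called (edgeR, adjusted p = 0.139). The Tnni1 share of troponin I TPM was 0.0425 ± 0.0195% in Tg-RKIP hearts and 0.0157 ± 0.00271% in controls (exact permutation p = 0.1).

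Tnnc1, the calcium-binding subunit at 14:30930269-30933686 on the plus strand, is the only troponin C gene of the list. It stood at 5253, 5248 and 5240.1 TPM in Tg-RKIP hearts, 3780.2, 3969.8 and 3930.1 TPM in the Tg-GRK2-labelled libraries, and 4145, 4331 and 4126 TPM in FVB controls. All 3 groups were apart in TPM, with Tg-RKIP hearts highest, whereas the TMM-scaled change against FVB was -0.10 ± 0.0189 (SE, edgeR, adjusted p = 9.80e-05) and was 0.28 when scaled by library size alone. The Tg-GRK2-labelled libraries were lower than the controls at -0.16 (edgeR, adjusted p = 1.46e-06). Tg-RKIP hearts were higher than the Tg-GRK2-labelled libraries at 0.06 (edgeR, adjusted p = 0.00500), a call lost without the first of those libraries (0.04, adjusted p = 0.0668).

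**Figure D4:**
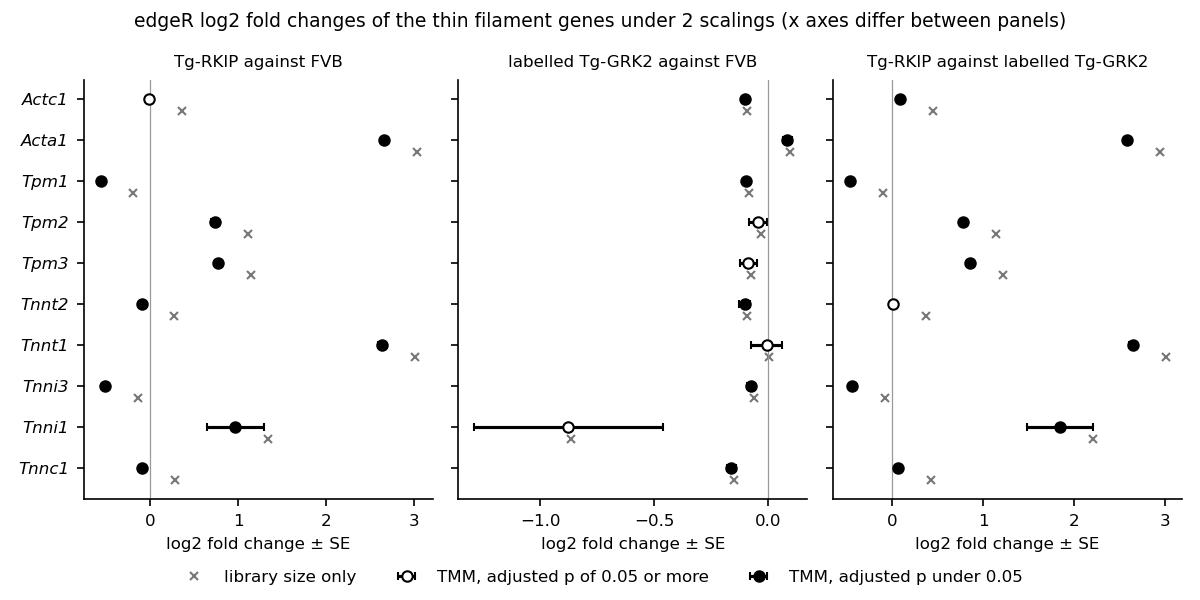
edgeR log2 fold changes of the 10 genes in the 3 comparisons, scaled by TMM (circles with SE, filled where called) and by library size alone (crosses), with a different x axis in each panel. In Tg-RKIP against FVB the points of Actc1, Tnnt2 and Tnnc1 lie below 0 under TMM (-0.02, -0.10 and -0.10) and above 0 under library size alone (0.36, 0.28 and 0.28), whereas Acta1, Tnnt1, Tpm2, Tpm3 and Tnni1 lie above 0 and Tpm1 and Tnni3 below 0 under both.

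Relative to troponin C within each library, a measure that does not depend on scaling between libraries, summed actin TPM was 2.88 ± 0.0422 in Tg-RKIP hearts, 2.28 ± 0.0386 in the Tg-GRK2-labelled libraries and 2.18 ± 0.0666 in FVB controls (SD, n = 3). Summed tropomyosin was 1.57 ± 0.00729, 2.29 ± 0.0324 and 2.18 ± 0.0225. Troponin T was 1.84 ± 0.0113, 1.91 ± 0.0128 and 1.83 ± 0.0302, and troponin I was 1.17 ± 0.0117, 1.61 ± 0.0109 and 1.52 ± 0.0242. The troponin I sum includes the short retained-intron transcript of Tnni3, which took 50.7, 46.4 and 45.8% of that gene's TPM in the same order. Tg-RKIP hearts were thus above the controls for actin, below them for tropomyosin and troponin I, and overlapped them for troponin T. The Tg-GRK2-labelled libraries stood above the controls without overlap in every ratio. Troponin C, the divisor, itself differed between groups and was called lower in those libraries (-0.16, edgeR), so each ratio moves with it. These ratios are a description of the TPM values without a test. Actin made up 33.8 to 34.3% of the TPM of the 10 genes in Tg-RKIP hearts and 24.4 to 25.5% in controls, and tropomyosin 18.5 to 18.8% and 24.9 to 25.2%.

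**Figure D5:**
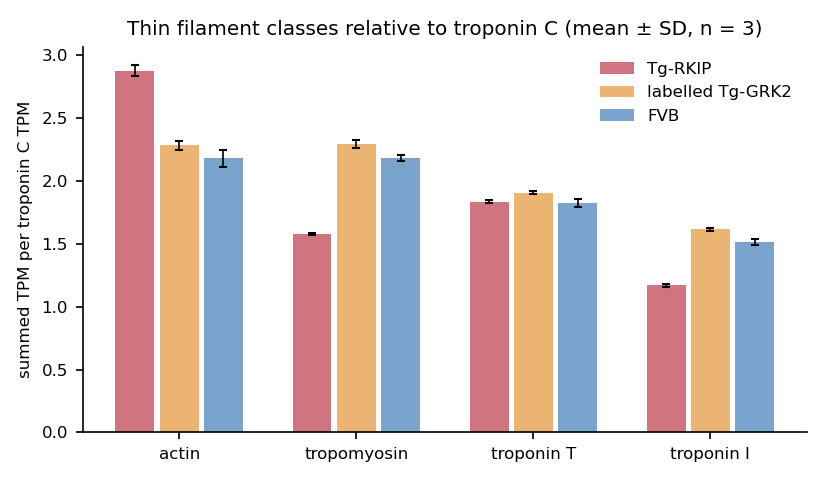
Summed TPM of actin, troponin T, troponin I and tropomyosin divided by the TPM of troponin C in the same library, with the mean and SD of 3 libraries for each group. The actin ratio is 2.88 in Tg-RKIP hearts and 2.18 in FVB controls, and the tropomyosin ratio is 1.57 and 2.18.

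In the Tg-GRK2-labelled libraries, 1 of the 10 genes was called higher than in FVB controls (Acta1) and 5 were called lower (Actc1, Tnnt2, Tnni3, Tnnc1 and Tpm1), while 4 were not called. The called changes ran from -0.16 to 0.09 on the log2 scale, beside 12.2% of all tested genes called higher and 12.2% called lower. The median over the 10 genes was -0.09 beside -0.00 over all genes tested. On log2(TPM + 0.1), limma called 2 of the 10, Acta1 and Tnnc1. Between Tg-RKIP hearts and the Tg-GRK2-labelled libraries, 7 of the 10 genes were called higher, 2 lower (Tpm1 at -0.47 and Tnni3 at -0.44, the latter not called in limma on log2(TPM + 0.1) at -0.032, adjusted p = 0.124) and 1 was not called (Tnnt2), beside 37.9% of all tested genes called higher and 36.6% lower. Here Tnnt1 differed by 2.65, Acta1 by 2.58, Tnni1 by 1.84, Tpm3 by 0.86 and Tpm2 by 0.78, and Actc1 by 0.08 (edgeR log2 fold changes). The median was 0.43 over the 10 genes beside 0.02 over all, and it fell in the gap between Actc1 and Tpm2 with no gene near it. With the most abundant transcript alone, 3 of the 10 were called higher and 3 lower. The calls lost were those of Tnni1 at 1.19, Tpm3 at 0.013, Actc1 at 0.035 and Tnnc1 at 0.015 (edgeR, adjusted p = 0.0753, 0.902, 0.0543 and 0.597), and Tnnt2 was called lower at -0.42.

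The other components of thin filament structure and turnover were taken from a list of 29 genes, of which 28 were tested and Tnnc2 was not. Against FVB, Tg-RKIP hearts had 11 of them higher, 12 lower and 5 not called, with a median of -0.02. These shares lay near the 36.8% called higher and 37.1% called lower among all tested genes. Named are the 21 genes with at least 10 TPM in a group, of which 7 rose and 11 fell. Among the genes that rose were the cytoplasmic actins Actb (0.76) and Actg1 (0.56) and the smooth muscle actin Acta2 (1.21), with mean TPM of 547, 438 and 419.7 beside 251, 227 and 156 in controls. Tpm4, a non-muscle tropomyosin (0.27), Cfl1, the non-muscle cofilin that severs actin (0.78), its partner in disassembly Wdr1 (0.15) and Xirp2 (0.25) also rose. Genes called lower under TMM scaling were the pointed-end cappers Tmod1 (-0.30), Tmod3 (-0.17) and Tmod4 (-0.38), the leiomodins Lmod2 (-0.12) and Lmod3 (-0.21), the Z-disc nebulin relative Nebl (-0.79) and the barbed-end capping subunit Capza2 (-0.31). Also lower were Nrap (-0.08) and Xirp1 (-0.44), Cap2 (-0.23), which promotes actin turnover, and the formin Fhod3 (-1.24), an actin assembly factor of the cardiac sarcomere. Capza1 (0.07), Capzb (0.04) and the muscle cofilin Cfl2 (-0.02) were not called. Scaled by library size alone, Tmod1, Tmod3, Lmod2, Lmod3, Nrap, Capza2 and Cap2 turned to values above 0, and on log2(TPM + 0.1) Tmod4 and Xirp1 did so too, while Nebl and Fhod3 stayed below 0 in every alternative run. The values of several of these genes depended on which transcripts were counted. The most abundant transcript alone gave -0.20 for Fhod3 and -0.077 for Cap2, neither called (edgeR, adjusted p = 0.103 and 0.361). It gave -4.34 for Nrap, 2.26 for Xirp2 and -1.82 for Nebl, all called. Capzb at -0.28 and Cfl2 at 0.19 changed sign and were called there (edgeR, adjusted p = 0.00556 and 0.00151). In the Tg-GRK2-labelled libraries against FVB, 5 of the 28 were higher, 5 lower and 18 not called, beside 12.2% of all tested genes in each direction.

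Marker genes of the cell types a heart sample can hold moved with the groups, and their part in the results above was not tested. The summed TPM of 7 cardiomyocyte markers was 26447 to 27003 in Tg-RKIP hearts, 32635 to 33389 in the Tg-GRK2-labelled libraries and 33912 to 34419 in controls, and none was at 0. Of these 7, 6 were lower and 1 higher in Tg-RKIP hearts than in controls. Markers of fibroblasts summed to 2752 to 2775, 1110.05 to 1122 and 970.257 to 1008 TPM, with 7 of 7 called higher in Tg-RKIP hearts. Markers of smooth muscle, which expresses Acta2, Tpm1 and Tpm2, summed to 774 to 789.9, 295 to 306 and 319 to 343 TPM, with 5 of 6 higher and 1 lower. The smooth muscle list holds Acta2 and Actg2 themselves, and Acta2 made up 419.7 TPM of its mean sum of 781 TPM in Tg-RKIP hearts, so that sum is no separate measure beside Acta2. Atrial markers summed to 22049.7 to 22654, 6415 to 6532 and 5808 to 5949.5 TPM, a sum that includes Nppa, with 2 of 5 higher and 3 lower. These counts are for Tg-RKIP against FVB, where 36.8% of all tested genes were called higher and 37.1% lower.

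For Acta1, Tnnt1 and Tnni1, genes of skeletal muscle, the fast skeletal markers are relevant. These 10 markers summed to 8.27 to 9.49 TPM in Tg-RKIP hearts, 4.55 to 4.79 TPM in the Tg-GRK2-labelled libraries and 3.32 to 5.63 TPM in controls, with Tnnc2 at 0 in all Tg-RKIP libraries. The fast skeletal list holds Tnni2, Tnnt3 and Tnnc2, which are also on the other thin filament list. Tnnt3 averaged 3.98 TPM in Tg-RKIP hearts and 0.980 TPM in controls, within mean sums of 8.72 and 4.50 TPM. The sum is thus no measure separate from the troponin genes. Of the 5 of the 10 markers that were tested, 2 were higher and 1 lower in Tg-RKIP hearts than in controls. Among all tested genes 36.8% were called higher and 37.1% lower in that comparison. Their part in the levels of Acta1, Tnnt1 and Tnni1 was not tested, and no list of slow skeletal markers was examined. Airway markers summed to 55.3 to 57.7 TPM in Tg-RKIP hearts, 138 to 146 TPM in the Tg-GRK2-labelled libraries and at most 0.0739 TPM in controls, where Scgb1a1, Scgb3a2 and Sftpc were at 0, and adipocyte markers to 83.5 to 85.6, 24.6 to 26.8 and 8.84 to 10.9 TPM. The airway and adipocyte levels thus moved with the groups as well, and their part in the thin filament results was not tested.

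Patterns of level across the 9 libraries were compared by Pearson's r of TMM-scaled log2 counts, a description that mostly follows the difference between the group means. Acta1 was most like Nppa, the gene of atrial natriuretic peptide (r = 1.00, with 447 genes above 0.99). Tnnt1 was most like Mtch1, Tpm2 like Pmp22 and Tpm3 like Irf2bpl, each with at least 200 genes above 0.99. Tnni3 was most like Mb, the myoglobin gene, and Tpm1 like Eci1, an enzyme of fatty acid oxidation. Actc1 was most like Klf2 (r = 0.980), Tnni1 like Trappc1 (0.984), Tnnc1 like Psma6 (0.974) and Tnnt2 like Tdp2 (0.922), with no gene above 0.99. Within the 10 genes, Acta1 and Tnnt1 (r = 0.998) and Tnni3 and Tpm1 (0.998) were the closest pairs.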

How the data were processed

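The authors deposited one table per library with read counts and TPM for 127558 Ensembl transcripts, each with its gene name, coordinates and exons. The submitters' processing notes name GRCm39 as the build. The aligner and the counter are not given in the sources used here. The deposited counts were whole numbers and were not normalised. TPM recomputed from the deposited counts and transcript lengths differed from the deposited TPM values by at most 5.5e-06.

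Counts and TPM were summed by gene name. edgeR 4.0.16 (R 4.3.3) was run on the summed counts with TMM scaling, filterByExpr and the quasi-likelihood test, with 1 mean for each of the 3 groups over all 9 libraries and Benjamini-Hochberg adjustment over 15504 genes (threshold 0.05). Alternatives used other scalings and filters, DESeq2 1.42.0, limma 3.58.1 on log2(TPM + 0.1) and log2(TPM + 1), the most abundant transcript of each gene, and single libraries left out. Isoform shares were compared by two-sided exact permutation tests (scipy 1.17.1). The fits were also run on simulated data in which only a small part of the genes was changed. That setting differs from Tg-RKIP against FVB, where most tested genes were called, so it does not cover the dependence on scaling described here. Groups came from the sample titles. The labels describe 3 mice per group, the p-values measure the spread between these 9 libraries, and no batch was named. That spread was small. Within groups, squared differences between pairs of libraries had a median 1.24 to 1.53 times that of read sampling alone. The common coefficient of variation beyond read sampling in edgeR was 2.86%. Whether this is the spread between separate mice was not tested, so the SE and p-values may understate that spread.

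Members, gene lists and marker lists were chosen with earlier results of these data known. The genes named were all 10 members, and genes of the other thin filament list with at least 10 TPM in a group or shared with a marker list. Markers at 0 were named too, and for each member the gene outside the member and other thin filament lists with the highest Pearson's r. Sequences came from RefSeq promoter windows (GRCm38.p6, 13 windows for the 10 members) and GRCm38 transcripts; the files' GRCm39 coordinates were not converted.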

Additional observations from a re-analysis of the deposited data

How the results depend on the processing

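Scaling decided the direction of several genes in Tg-RKIP against FVB. The median of all genes stood at 0.01 on the log2 scale under TMM, 0.38 under library size alone and 0.43 in limma on log2(TPM + 0.1), and 49.8, 78.6 and 82.0% of the called genes were higher. For Tg-GRK2 against FVB the share of calls that were higher was 50.0% under TMM and 68.5% in limma, and for Tg-RKIP against Tg-GRK2 it was 50.9% under TMM, 77.1% under library size alone and 78.8% in limma. Under library size alone, Tg-RKIP against FVB turned to 0.36 for Actc1, 0.28 for Tnnt2, 0.28 for Tnnc1, 0.071 for Tmod1, 0.20 for Tmod3, 0.26 for Lmod2, 0.16 for Lmod3, 0.30 for Nrap, 0.063 for Capza2, 0.35 for Cfl2 and 0.15 for Cap2. In limma on log2(TPM + 0.1), with and without a filter, and on log2(TPM + 1), the values were 0.40 for Actc1, 0.31 for Tnnt2, 0.32 for Tnnc1, 0.11 for Tmod1, 0.32 for Tmod3 (0.31 with a pseudocount of 1), 0.083 for Tmod4 (0.080 with a pseudocount of 1), 0.30 for Lmod2, 0.20 for Lmod3, 0.42 for Nrap, 0.092 for Xirp1 (0.091), 0.080 for Capza2 (0.079), 0.45 for Cfl2 and 0.039 for Cap2. With genes of at least 50 counts on average, a fit that leaves out Tnni1, Actc1 was at 0.015 and Cfl2 at 0.010. With the most abundant transcript alone, Tpm3 was at -0.066, Capzb at -0.28 and Cfl2 at 0.19.

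In Tg-GRK2 against FVB, Tnnt1 turned to 0.0047 with DESeq2's size factors in edgeR, 0.0068 under library size alone, 0.0059 in DESeq2 and 0.0404 in limma (0.0383 with a pseudocount of 1). Tpm2 turned to 0.00796 in limma (0.00777 with a pseudocount of 1) and to 0.030 with the most abundant transcript. The members called fell from 6 to 2 under each of the 3 limma settings, and all genes called fell from 3793 to 2060 in limma without a filter. In Tg-RKIP against Tg-GRK2, Tnnt2 turned to -0.0042 with DESeq2's size factors in edgeR, -0.0042 in DESeq2, -0.0060 without a filter, -0.0058 with only these groups and -0.42 with the most abundant transcript. The causes were not tested.

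Leaving out each replicate in turn, Tnnt1 in Tg-GRK2 against FVB ran from -0.044 to 0.057, the Tpm3 share difference in that comparison from -0.00775 to 0.0118 percentage points, and Tnnt2 in Tg-RKIP against Tg-GRK2 from -0.025 to 0.018.

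Deviations from the group means were only weakly correlated between same-numbered libraries, at -0.0455 to 0.0508. In Tg-GRK2 against FVB the best match of every library was still the same-numbered one (0.0214, 0.0285 and 0.0342). In Tg-RKIP against FVB this held for replicate 2 only, and in Tg-RKIP against Tg-GRK2 for replicate 1 only. Values this small cannot tell whether the replicate numbers pair the samples. With the replicate number as a block, 11401, 3660 and 11491 genes were called in the 3 comparisons, against 11460, 3793 and 11551 without it, and 9, 6 and 9 members, and no member's call changed.

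Over the fold changes of the genes named, 944 values under alternatives kept direction and call, 78 turned, 17 gained and 29 lost a call. Depth limits Tnni1, with 9 to 59 reads per library.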
